A study of Mus musculus with 60 samples.

Results

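Dppa2, Dppa3, Dppa4 and Dppa5a of the developmental pluripotency associated (Dppa) genes, together with Tcl1 and Zfp42, are widely used markers of mouse pluripotent cells, and their messenger RNA was followed here through conversion to the 2i state. The 6 genes were taken by symbol from the table of raw counts, which lists 50559 genes, and all 6 were among the 15083 genes with enough counts to be tested. The data are 60 libraries of poly(A) RNA from mouse embryonic stem cells, 3 in each of 20 groups that combine 4 lines with 5 times. The cells grew on gelatin in medium with fetal bovine serum and the cytokine LIF, and 2i, the inhibitors CHIR99021 (3 µM, against the kinase Gsk3) and PD0325901 (1 µM, against the kinase Mek), was added for 12, 24, 48 or 96 h, with untreated cells as 0 h.

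The lines are wild-type 1A, wild-type V19, and knockouts of Ezh2 or of Eed made in 1A, each sampled at 0, 12, 24, 48 and 96 h. 1A and V19 were derived independently. Ezh2 is the catalytic subunit and Eed a core subunit of the Polycomb complex PRC2, which methylates histones at silenced developmental genes. Each knockout was edited with Cas9 from 1A and is represented by 1 line, so that an effect of the genotype and a trait of that line cannot be told apart. The 3 libraries of a group are labelled as biological replicates, but no label says that they came from cultures grown apart, and the p-values below measure the spread between these libraries, which may be technical.

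The 6 genes have different roles. Dppa2 and Dppa4 are neighbouring genes for DNA-binding proteins that work as a pair, bind promoters held in a poised state and are known to activate genes of the 2-cell embryo. Dppa3 (also called Stella) encodes a maternal and germ cell protein that holds back maintenance DNA methylation by binding Uhrf1. Dppa5a encodes a small RNA-binding protein with a KH domain, Tcl1 a coactivator of the kinase Akt, and Zfp42 (Rex1) a zinc finger protein related to Yy1 that serves as a reporter of the naive state.

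Promoter windows of 300 bases, from 250 bases before to 50 bases after the start of the gene, were held for Tcl1 and Zfp42 in a RefSeq table on GRCm38.p6. These were the only 2 members with a window in that source. The Tcl1 window is chr12:105222688-105222987 and the Zfp42 window chr8:43306960-43307259, both on the minus strand and read 5′ to 3′ along the gene. Capitals mark matches to the motifs searched.
Tcl1: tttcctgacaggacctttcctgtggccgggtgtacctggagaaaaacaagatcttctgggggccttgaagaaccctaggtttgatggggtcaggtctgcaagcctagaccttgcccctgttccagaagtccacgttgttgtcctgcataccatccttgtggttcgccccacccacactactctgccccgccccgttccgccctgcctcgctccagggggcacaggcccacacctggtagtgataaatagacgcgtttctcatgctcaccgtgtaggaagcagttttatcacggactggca
Zfp42: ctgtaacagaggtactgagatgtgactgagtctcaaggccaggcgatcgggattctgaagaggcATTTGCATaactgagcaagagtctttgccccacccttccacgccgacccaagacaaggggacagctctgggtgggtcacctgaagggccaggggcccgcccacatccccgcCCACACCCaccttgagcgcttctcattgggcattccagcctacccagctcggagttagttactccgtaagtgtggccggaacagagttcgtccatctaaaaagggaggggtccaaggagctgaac
The Zfp42 window holds the octamer ATGCAAAT, read on its other strand, from position -186 and the Klf motif GGGNGTGG, also on its other strand, from position -75. No match to any of the motifs lies in the Tcl1 window. Both strands were searched for AAGGTCA (Esrrb), GGGNGTGG (Klf), CTTTGAT (Tcf7l1 and Lef), TTCCNGGAA (Stat3), ATGCAAAT (octamer) and GTGACGT (Creb), which are held by 4.72%, 17.6%, 3.73%, 1.15%, 1.74% and 3.85% of all 32851 windows. The 2 windows hold 11 CpG dinucleotides each, against a median of 7 over all windows. No window was held for Dppa2, Dppa3, Dppa4 or Dppa5a.

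Library totals ran from 2561169 to 11065948 counts (median 6055990), and mitochondrial genes took 0.609 to 2.17% of the counts. The targeted genes followed the labels: Ezh2 was at 14.51 to 19.94 CPM (counts scaled to library size) in the Ezh2 knockout against 194 to 277.7 in 1A wild type, and Eed at 15.3 to 28.21 CPM in the Eed knockout against 246.1 to 393.4. All 8 embryonic stem cell markers examined were present in every library. Their summed level was 5750 to 5940 CPM in 1A wild type and 4040 to 4220 CPM in the Eed knockout at 0 h. The Eed knockout also carried markers of other embryonic lineages at 0 h: the sum of 10 primitive endoderm markers was 4230 to 4430 CPM against 502 to 557 in 1A wild type, and that of 9 trophoblast markers 1530 to 2020 CPM against 222 to 271. The 10 fibroblast markers summed to 21.9 to 24 CPM against 7.11 to 11.7, the 5 neural markers to 125 to 133 CPM against 152 to 169, and the 5 germ cell markers to 203 to 214 CPM against 126 to 134. In bulk RNA, fewer cells of a type and less RNA per cell cannot be told apart. Of the 60 libraries, 4 deviated from their group by over 1.5 times the median root mean square deviation (0.226 on the log2 scale): 1A wild type 48 h replicate 3, V19 48 h replicates 2 and 3, and Eed knockout 12 h replicate 1. Results that change without them are given both ways.

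Levels were compared between genes as CPM per kb of exon. In 1A wild type at 0 h, Dppa5a was the most abundant member at 1315 ± 91.1 CPM per kb (SD, n = 3), followed by Zfp42 at 121.9 ± 5.16, Dppa4 at 84.5 ± 5.69, Dppa3 at 66.14 ± 11.1, Dppa2 at 59.29 ± 0.614 and Tcl1 at 12.76 ± 0.632. The libraries of Dppa3 and Dppa2 overlapped, so that these neighbours in the order could not be separated. After 96 h, Dppa5a (2149 CPM per kb) and Zfp42 (197) still led, Tcl1 (48.81) lay beside Dppa4 (50.56), and Dppa3 (16.03) was last. Dppa5a alone took 0.0825% of all counts in 1A wild type at 0 h and 0.257% at 48 h.

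**Figure D1:**
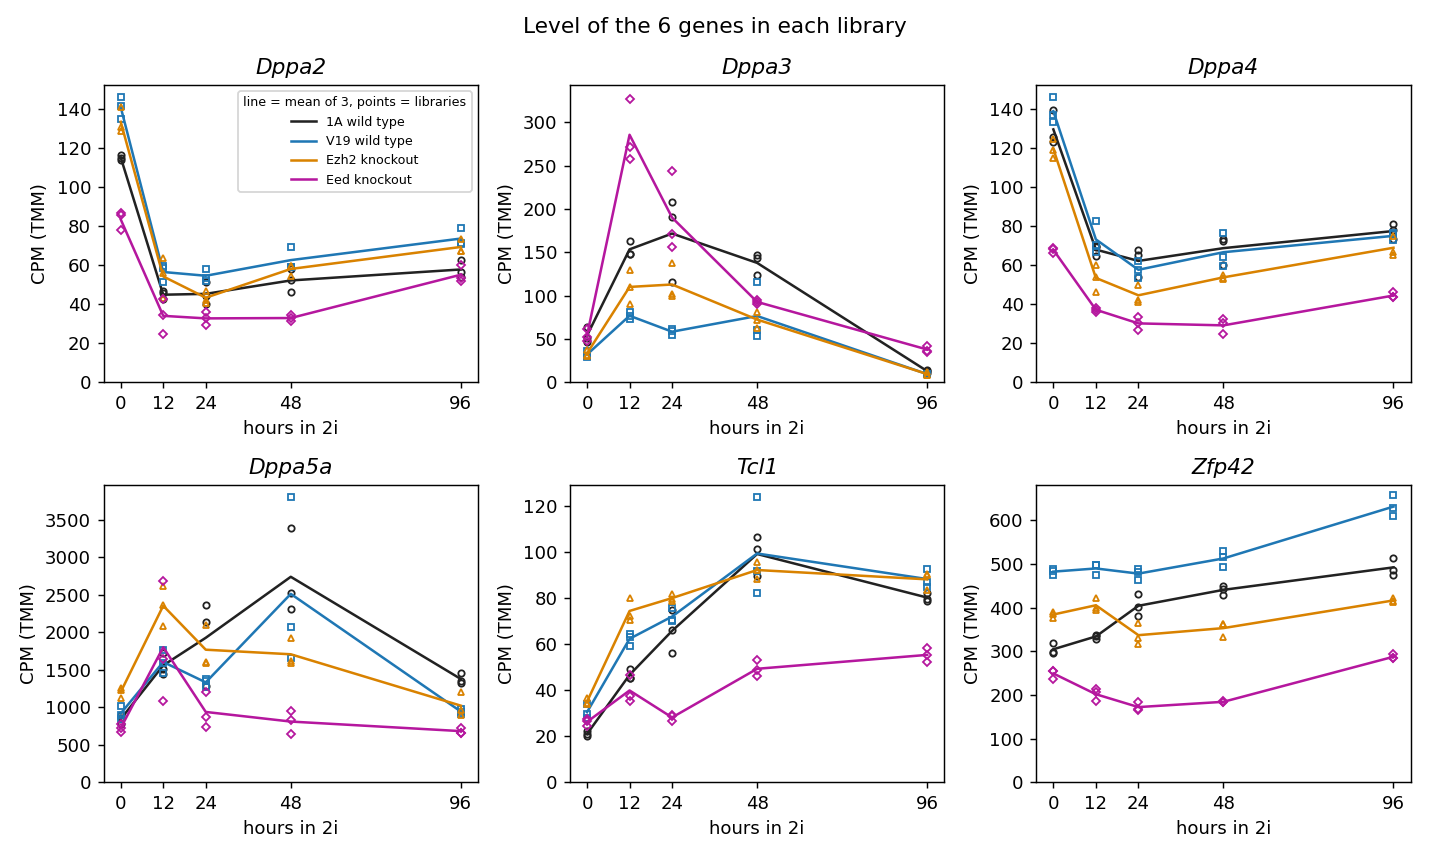
Level of the 6 genes in CPM (with TMM factors, linear axes from 0) against hours in 2i, 1 panel per gene. Points are libraries, lines join the means of 3, and colours mark the 4 lines; Dppa2 and Dppa4 drop within 12 h, Dppa3 rises and then drops at 96 h, and the Eed knockout lies lowest for Zfp42 at every time.

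Against 0 h, every member but Zfp42 changed by 12 h in the same direction in all lines. Zfp42 was called at 12 h in the Eed knockout only (-0.31). At 24 h its change was 0.41 in 1A wild type and -0.53 in the Eed knockout. In 1A wild type, 5, 6, 6 and 6 of the 6 were called at 12, 24, 48 and 96 h (adjusted p under 0.05 after Benjamini-Hochberg correction of the quasi-likelihood test in edgeR), where 40.8%, 46.4%, 53% and 48.6% of all genes tested were called. In V19, 5 of 6 were called at each time (background 42.3%, 40.4%, 50.8% and 47.5%). The Ezh2 knockout had 5, 6, 5 and 4 calls (background 50.1%, 46.7%, 49.1% and 42.8%), and the Eed knockout 6, 4, 5 and 5 (background 50.3%, 41.1%, 49.2% and 39.7%). The calls went both ways, with 4 members higher and 2 lower in 1A wild type at 48 h, where the median log2 change was 0.94 for the members and 0.018 for all genes. Between 48 and 96 h, 4, 3, 4 and 4 members were called in 1A wild type, V19, Ezh2 knockout and Eed knockout (background 31.5%, 34.2%, 24.2% and 35.3%).

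Dppa2 and Dppa4 lie 16 kb apart on chromosome 16 (Dppa4 at 48104098 to 48114655 and Dppa2 at 48130637 to 48139876, both on the plus strand, GRCm39) and fell together within 12 h in all 4 lines. Dppa2 was at 115, 116.3 and 113.9 CPM in the 1A wild-type libraries at 0 h and at 46.54, 45.64 and 42.49 CPM at 12 h. The groups do not overlap, and the fall was 2.56-fold (log2 change -1.36 ± 0.11 SE, adjusted p = 7.3e-15). Dppa4 went from 139.6, 125.9 and 123.3 CPM to 65, 69.18 and 69.94 CPM (-0.93 ± 0.095). At 96 h both were still below 0 h, Dppa2 by -0.99 and Dppa4 by -0.74 in 1A wild type. V19 gave -1.32 for Dppa2 and -0.92 for Dppa4 at 12 h, the Ezh2 knockout -1.29 and -1.15, and the Eed knockout -1.25 and -0.87, all of them called. From 48 to 96 h both genes rose in the Eed knockout, Dppa2 by 0.74 ± 0.12 and Dppa4 by 0.61 ± 0.11. Dppa4 rose in the Ezh2 knockout by 0.36 ± 0.098, which was not called in the authors' second, RUV-normalized table (0.23).

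The pair was not locked in ratio. Per kb of exon, Dppa2 stood at 0.704 ± 0.0455 (SD, n = 3) of Dppa4 in 1A wild type at 0 h and at 0.522 to 0.6 in the means of the later times. The ratio in the Eed knockout was 0.972 ± 0.0717 at 0 h, 0.725 ± 0.197 at 12 h and 0.977 ± 0.0372 at 96 h. V19 (0.801 ± 0.0134) and the Ezh2 knockout (0.882 ± 0.0621) lay between these values at 0 h. Across the means of the 20 groups, the log2 levels of the 2 genes had a Pearson r of 0.911, and 0.935 over the 10 wild-type groups; the groups share lines and libraries' normalization, and the value is a description. Of the 75-base windows along their transcripts, 25.7% of those of Dppa2 and 20.1% of those of Dppa4 also occur in other listed genes, so reads could be split between copies. The counts of those copies came to at most 2.67% of the member's own (Gm14058 beside Dppa4). How reads that match several genes were counted is not given, so these counts cannot show how many reads a member lost.

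**Figure D2:**
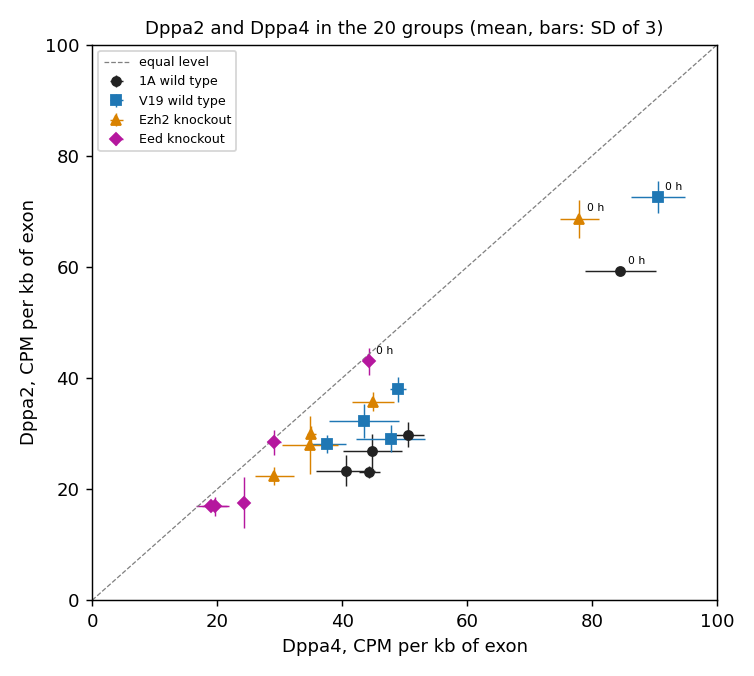
Dppa2 against Dppa4 in the 20 groups, both in CPM per kb of exon on linear axes, with points as means of 3 libraries and bars as SD; the dashed line marks equal levels and the 0 h groups are labelled. The 1A wild-type group at 0 h lies under the line, with a ratio of 0.704, and the Eed knockout at 0 h lies close to it at 0.972.

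Known downstream genes of the pair were nearly silent in 1A wild type. Of 18 genes listed as 2-cell genes reported downstream of Dppa2 and Dppa4, 17 are in the table and 12 were tested. In 1A wild type 0 were called at 12 h, and 4 were higher and 0 lower at 96 h; in V19 at 96 h, 8 were higher. Over all genes, 25.1% were higher in 1A wild type and 24.8% in V19 at 96 h. Their summed level was 1.02 to 2.29 CPM in 1A wild type at 0 h, 4.2 to 5.87 CPM at 96 h, and 19 to 25.7 CPM in V19 at 96 h. In the raw counts of the Eed knockout, Dppa4 was lower than in 1A wild type at 0 h (-0.934) and 96 h (-0.799). Dppa2 was lower at 0 h (-0.465) and did not differ by the test at 96 h (-0.068). In the RUV table Dppa4 was not called at either time (-0.04 and 0.233), and Dppa2 was higher at 96 h (0.649). The summed level of the 2-cell genes in the Eed knockout was 48.1 to 61.4 CPM at 0 h and 44.2 to 58.1 CPM at 96 h. All 12 genes tested were higher than in 1A wild type at both times, against 26.4% and 30.9% of all genes. Most of them belong to the Zscan4 and Usp17l families of near-identical copies, so the values of single members are uncertain.

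Dppa3 rose quickly and then fell below its starting level. In 1A wild type its 3 libraries were at 64.39, 47.05 and 50.86 CPM at 0 h, at 148.1, 163.3 and 148.6 CPM at 12 h and at 13.21, 11.44 and 14.68 CPM at 96 h. None of these groups overlap. The rise at 12 h was 2.82-fold (1.497 ± 0.182), the level stayed high at 24 h (1.66 ± 0.18) and 48 h (1.34 ± 0.18), and the fall from 48 to 96 h was 10.4-fold (adjusted p = 2.1e-17). At 96 h it stood 4.13-fold under 0 h (-2.05 ± 0.22). V19 rose by 1.26 ± 0.20 at 12 h and ended at -1.73 ± 0.25, and the Ezh2 knockout rose by 1.71 ± 0.19 and ended at -1.80 ± 0.23.

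In the raw counts, the Eed knockout had the highest Dppa3 level of the series. Its libraries were at 52.73, 61.86 and 48.28 CPM at 0 h, which overlaps 1A wild type, and at 326.9, 271.6 and 257.6 CPM at 12 h, a rise of 5.24-fold (2.39 ± 0.18). At 96 h they were at 36.85, 41.71 and 35.42 CPM, each above every library of the other lines at that time (8.331 to 14.68 CPM over those lines). The fall below 0 h was -0.51 ± 0.19 there, and leaving out any of 3 of the 6 libraries ended that call (range -0.59 to -0.41). The Eed knockout also fell less from 48 to 96 h, by -1.29 ± 0.19 against -3.39 ± 0.22 in 1A wild type. In the RUV table the mean of the Eed knockout at 12 h (1210) lay beside that of 1A wild type at 24 h (1220).

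The neighbours of Dppa3 on chromosome 6 (Dppa3 at 122603383 to 122607230, plus strand, GRCm39) mostly kept their changes in 1A wild type up to 96 h, where Dppa3 lost its rise. Nanog, the homeobox factor of naive pluripotency 77.2 kb away, rose by 1.72 ± 0.086 at 12 h in 1A wild type and was still at 2.08 ± 0.087 at 96 h. Slc2a3, a glucose transporter gene 97.5 kb away, was at 1.07 and 0.82 at those times, and Gdf3, a TGF-beta family ligand gene 16.3 kb away, at 0.33 and 0.34. Apobec1, a cytidine deaminase gene 23.4 kb away, was at 0.76 and 0.91, while Mfap5, a microfibril protein gene, fell by -0.85 and -0.80. All of these changes were called. Nanog rose in the Eed knockout by 0.61 ± 0.083 at 12 h, when Dppa3 rose by 2.39.

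**Figure D3:**
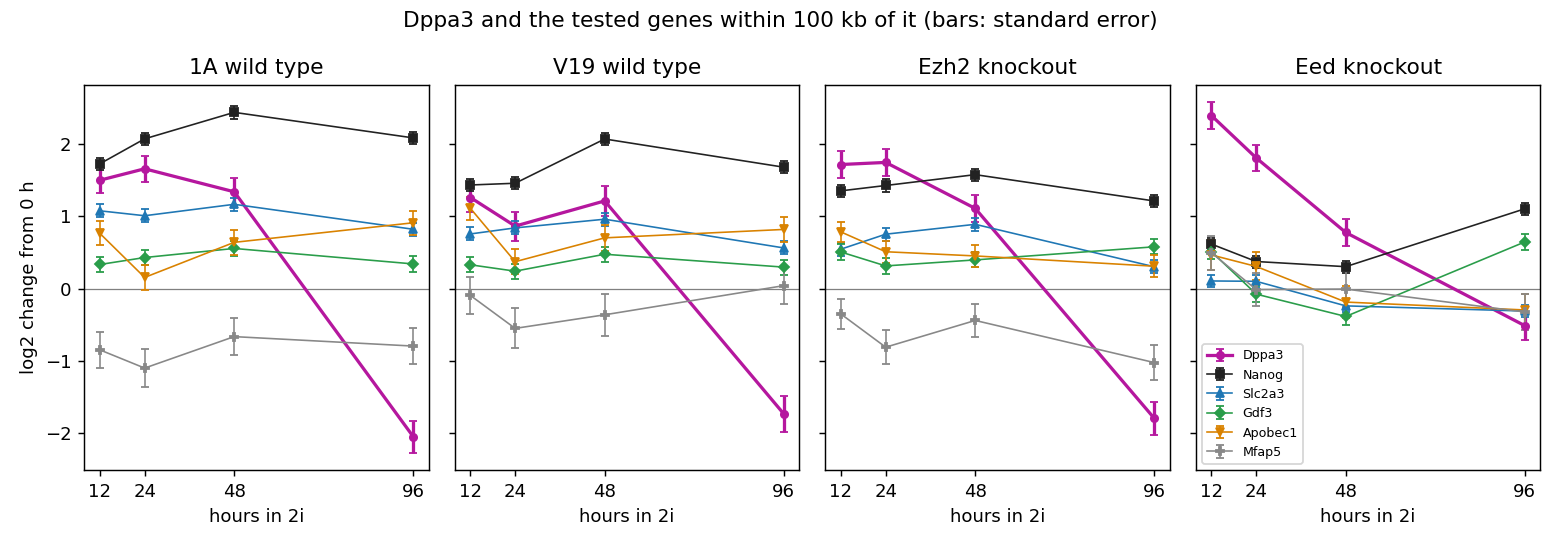
Log2 change from 0 h of Dppa3 and of the 5 tested genes within 100 kb of it against hours in 2i, 1 panel per line, with SE bars. Dppa3 drops to -2.05 at 96 h in 1A wild type, where Nanog stays at 2.08; in the Eed knockout Dppa3 rises most, to 2.39 at 12 h.

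Genes listed for DNA methylation around Dppa3 were mostly lower at 12 h, when Dppa3 was higher. The list holds Uhrf1, which Dppa3 binds, beside general DNA methylation genes, and a link to Dppa3 was not tested. Of 12 listed genes, all tested, 1 was higher and 10 lower in 1A wild type at 12 h (median -0.76, all genes 0.021), led by the de novo methyltransferase genes Dnmt3a at -3.24 ± 0.11 and Dnmt3b at -2.21 ± 0.11 and their cofactor gene Dnmt3l at -1.67 ± 0.12. Over all genes 20% were higher and 20.8% lower at that time. Zfp57, which guards imprints, was at -0.91 ± 0.066. At 96 h, with Dppa3 below its start, 3 were higher and 6 lower, against 25.1% and 23.5% of all genes. The counts of higher and lower genes at 12 h were 1 and 10 in V19, 1 and 11 in the Ezh2 knockout, and 0 and 9 in the Eed knockout. The shares over all genes were 21.5% and 20.8% in V19, 26.2% and 23.9% in the Ezh2 knockout, and 25.2% each way in the Eed knockout.

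Dppa5a, on chromosome 9 (78274334 to 78275481, minus strand), had its highest mean at 48 h in both wild types and fell from 48 to 96 h. The 48 h libraries overlapped those at 24 h in 1A wild type (1286, 2139 and 2359 CPM) and those at 12 h in V19 (1593, 1460 and 1763 CPM). In 1A wild type the libraries were at 859.1, 891.6 and 778.2 CPM at 0 h, at 2311, 2523 and 3390 CPM at 48 h and at 1318, 1460 and 1354 CPM at 96 h. The groups at 0, 48 and 96 h do not overlap, and the change was 3.25-fold (1.70 ± 0.22) at 48 h and 1.63-fold (0.71 ± 0.21) at 96 h. In V19 the 48 h libraries were widely spread, at 2067, 3813 and 1663 CPM, and at 96 h the level did not differ from 0 h by the test (0.04 ± 0.21, adjusted p = 0.89).

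In each knockout the highest Dppa5a mean was at 12 h, where libraries overlapped those at 24 h (up to 2104 CPM in Ezh2 and 1198 CPM in Eed). The Ezh2 knockout was at 2370, 2082 and 2617 CPM at 12 h, a rise of 0.97 ± 0.21, and at -0.24 ± 0.21 at 96 h, which was not called. The rises of 0.55 at 24 h and 0.50 at 48 h in that line lost their call when any of 4 and of 6 libraries, respectively, was left out. The Eed knockout was at 2680, 1642 and 1085 CPM at 12 h (1.32 ± 0.21), where the highest library is the one that stands apart, and no change was called later. From 48 to 96 h Dppa5a fell by -0.99 ± 0.21 in 1A wild type, -1.41 ± 0.21 in V19 and -0.74 ± 0.21 in the Ezh2 knockout.

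Short genes as a class moved with these values. Dppa5a (641 bases of exon) and Dppa3 (818 bases) are among the 1025 tested genes under 1000 bases. The median log2 change of that class in 1A wild type was 0.41 at 12 h, 0.45 at 24 h, 0.58 at 48 h and 0.16 at 96 h, and it was 0.57 in the Eed knockout at 12 h. Library by library, Dppa5a deviated from its group mean in the same direction as the median short gene in 50 of 60 libraries and Dppa3 in 51 of 60. In V19 48 h replicate 2 the short genes were at 0.54 above the group, Dppa5a at 0.69 and Dppa3 at 0.68; in replicate 3 they were at -0.35, -0.50 and -0.43. From 48 to 96 h the short-gene median was -0.39 in 1A wild type, -0.46 in V19, 0.054 in the Ezh2 knockout and 0.16 in the Eed knockout. In the Eed knockout against 1A wild type it was -0.41 at 24 h, -0.68 at 48 h and -0.14 at 96 h. Dppa3 stood at -2.05 against 0 h in 1A wild type at 96 h, where the short-gene median was 0.16. The part of gene length in the changes of Dppa5a and Dppa3 was not tested.

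**Figure D4:**
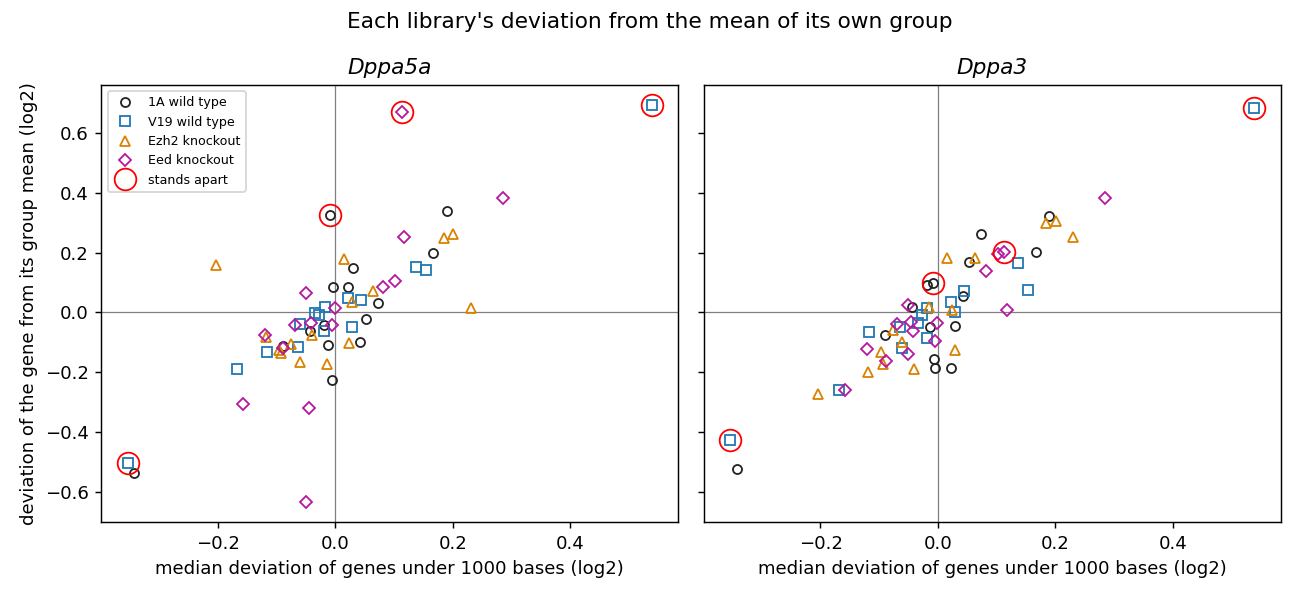
Deviation of Dppa5a (left) and Dppa3 (right) from the mean of their own group, in log2, against the median deviation of the genes under 1000 bases in the same library, 1 point per library. Circles mark the 4 libraries that stand apart; most points have the same sign on both axes, 50 of 60 for Dppa5a and 51 of 60 for Dppa3.

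Ooep, a KH-domain gene of the oocyte cortex 8.7 kb from Dppa5a, rose as well in 1A wild type, by 0.70 ± 0.14 at 12 h, 2.11 ± 0.14 at 48 h and 1.62 ± 0.14 at 96 h. Ooep in the Eed knockout was at 0.78 at 12 h and 0.57 at 96 h. Of the farther neighbours in 1A wild type, Cgas was called at 96 h (1.04 ± 0.24) and Mto1 at 24 h (-0.30 ± 0.12) and 48 h (-0.30 ± 0.13), and Ddx43 at no time. Of 10 maternal genes listed beside Dppa5a and Dppa3, 4 were tested, and 1 was higher (Ooep) and 1 lower (Tle6, -1.09 ± 0.31) in 1A wild type at 96 h. Other listed genes share 19.4% of the 75-base windows of Dppa5a, and the most counted of them, Pigp, had 0.64% of its counts. Here too, these counts cannot show how many reads Dppa5a lost.

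Tcl1 rose in all 4 lines at 12 h and was above 0 h in all of them at 48 and 96 h. On chromosome 12 (105183012 to 105188996, minus strand), it was at 19.98, 22.05 and 20.85 CPM in 1A wild type at 0 h, at 49.38, 45.32 and 45.13 CPM at 12 h, at 101.4, 89.34 and 106.5 CPM at 48 h and at 78.63, 79.71 and 82.23 CPM at 96 h. None of these groups overlap. The rise at 48 h was 4.7-fold (2.23 ± 0.11, adjusted p = 1.5e-23), and the step down from 48 to 96 h was -0.30 ± 0.096, a call that ended when any of 3 of the 6 libraries was left out (range -0.36 to -0.25). V19 ended at 1.54 ± 0.11 and the Ezh2 knockout at 1.33 ± 0.10. The Eed knockout ended at 1.08 ± 0.11, and at 24 h it was at 28.55, 26.77 and 29.07 CPM, which overlaps its 0 h level (0.10 ± 0.11, adjusted p = 0.49).

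Of 21 genes listed for the Akt pathway around Tcl1, 1 was higher and 8 lower in 1A wild type at 12 h (median -0.18, all genes 0.021), among them Foxo1 at -1.21 ± 0.088, a transcription factor gene under Akt control, and Eras at -1.67 ± 0.14, a Ras gene of embryonic stem cells. At 96 h, 7 were higher and 8 lower. Over all genes 20% were higher and 20.8% lower at 12 h, and 25.1% and 23.5% at 96 h. The paralogs Tcl1b1 to Tcl1b5 beside Tcl1 had at most 2 counts in any library (Tcl1b2). No tested gene lies within 100 kb of Tcl1, and none within 100 kb of Zfp42.

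Zfp42 had the smallest changes from 0 h of the 6 in 1A wild type up to 48 h. At 96 h its change was close in size to those of Dppa5a (0.71) and Dppa4 (-0.74). On chromosome 8 (43748104 to 43760046, minus strand), Zfp42 was at 319.3, 298.1 and 296 CPM in 1A wild type at 0 h and at 514, 486.4 and 475.7 CPM at 96 h, a rise of 1.62-fold (0.69 ± 0.061), after 0.13 ± 0.061 at 12 h, which was not called. V19 was already at 484.3, 487.8 and 474.8 CPM at 0 h and rose by 0.39 ± 0.060 by 96 h. In the Ezh2 knockout the change at 96 h was 0.12 ± 0.060 (adjusted p = 0.12). The Eed knockout went the other way first, from 255.5, 236.3 and 255.4 CPM at 0 h to 165.9, 166.6 and 183.7 CPM at 24 h (-0.53 ± 0.061), and then to 293.7, 284.7 and 284 CPM at 96 h (0.21 ± 0.061). Its rise from 48 to 96 h was 0.64 ± 0.062. The value in 1A wild type was 0.16 ± 0.060, a call that ended when any of 5 of the 6 libraries was left out and without the libraries that stand apart (0.12).

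Of the 7 genes listed for Zfp42 and X inactivation, 6 were tested, and 0 were higher and 1 lower (Yy1, -0.50 ± 0.089) in 1A wild type at 12 h. At 96 h, 3 were lower: Rlim, the ubiquitin ligase gene that targets Rex1 for degradation, at -1.74 ± 0.11, Ftx, a noncoding gene near Xist, at -2.37 ± 0.30, and Yy2 at -0.43 ± 0.16. Over all genes 40.8% were called at 12 h, and 48.6% at 96 h, where 23.5% were lower. The naive regulators, 15 in all, were higher in 7 cases and lower in 4 at 12 h, and higher in 9 and lower in 4 at 96 h, where Tbx3 was at 3.36 ± 0.11 and Prdm14 at 3.12 ± 0.11. The shares over all genes were 20% higher and 20.8% lower at 12 h and 25.1% and 23.5% at 96 h. Nanog is in that list. At 12 h in the Eed knockout, 3 of the 15 were higher and 9 lower, against 25.2% of all genes in each direction.

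Each member had close companions across the 20 group means of log2 level, given here as Pearson r with no test, since the groups share lines and normalization. Dppa2 was most like Rarg (0.962), a retinoic acid receptor gene, Exoc3l (0.961) and Eaf1 (0.946). Dppa4 was most like Halr1 (0.97), a noncoding gene beside the Hoxa cluster, Nolc1 (0.958) and Eras (0.957). Dppa3 followed Dync1i2 (0.938), Prkra (0.916) and Tspan6 (0.893), and Tcl1 followed Asns (0.954), the asparagine synthetase gene, Rdm1 (0.949) and Auh (0.948). The companions of Dppa5a were ribosomal protein genes, Rps2 (0.942), Rps14 (0.937) and Rps3a3 (0.935), with 999, 597 and 864 bases of exon. Zfp42 was most like Triml1 (0.965), which lies 114.6 kb from it on chromosome 8, then Sh3gl2 (0.948) and Dlgap3 (0.947). Among the members themselves, Dppa3 and Dppa4 were at -0.491 and Dppa5a and Tcl1 at 0.602.

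Lines were next compared with 1A wild type at the same time. These 3 sets of comparisons share the 1A wild-type libraries. V19 differed in 3, 4, 2, 2 and 2 of the 6 members at 0, 12, 24, 48 and 96 h (background 10.5%, 11.3%, 13.8%, 8.38% and 7.45%). The Ezh2 knockout differed in 3, 5, 4, 4 and 1 (background 22.8%, 25.2%, 29.3%, 32.2% and 13.2%), and the Eed knockout in 4, 5, 5, 6 and 5 (background 49.6%, 54.7%, 62.8%, 66% and 55.3%). Set directly against the Ezh2 knockout, the Eed knockout differed in 6, 5, 6, 5 and 6 members (background 45.3%, 49.3%, 52.4%, 58.3% and 52.1%).

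By the number of times called, the wild-type lines differed most in Dppa3 and Zfp42. At 96 h the largest difference was that of Dppa5a (-0.545), which was not called. Dppa3 was lower in V19, with 76.36, 73.45 and 80.9 CPM at 12 h against 148.1, 163.3 and 148.6 in 1A wild type (-0.995 ± 0.176), and it was lower by -0.76 at 0 h, -1.55 at 24 h and -0.88 at 48 h (not called with these groups fitted alone, adjusted p = 0.18). The call at 0 h was lost without 1A wild type 0 h replicate 1 (-0.61) and without V19 0 h replicate 1 (-0.70). At 96 h the difference was -0.44 ± 0.28 and was not called. Zfp42 was higher in V19 at every time, by 0.66 ± 0.061 at 0 h and 0.36 ± 0.060 at 96 h; the differences of 0.24 at 24 h and 0.22 at 48 h were not called in the RUV table (0.13 and 0.12), with no filter on low counts or with the groups fitted alone, and that at 48 h was not called without the libraries that stand apart (0.22, adjusted p = 0.18). The 812 tested genes of chromosome 8, which carries Zfp42, had a median of 0.40 in V19 against 1A wild type at 0 h, while the other chromosomes had a median of -0.014, and 43.7% of them were called higher. The part of that shift in the Zfp42 difference was not tested. Tcl1 was higher in V19 at 0 h (0.54 ± 0.12) and 12 h (0.42 ± 0.10), and Dppa2 at 12 h (0.33) and 96 h (0.35), where leaving out any of 5 libraries ended each call. Dppa4 and Dppa5a were not called at any time.

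A pseudogene follows Zfp42. Zfp42-ps1 on chromosome 15 had 24660 counts over all libraries, 18.2% of the count of Zfp42, and its level lay between 16% and 19.9% of that of Zfp42 in each of the 20 group means. It was higher in V19 than in 1A wild type at 0 h by 0.74 (adjusted p = 7.2e-06). The 2 genes share 4.36% of the 75-base windows of Zfp42, and whether the counts of the pseudogene are reads of Zfp42 was not tested.

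In the raw counts, the Ezh2 knockout departed from 1A wild type by less than 1 log2 unit in every member at every time. Dppa3 at 48 h was past that in the RUV table (-1.08). Dppa3 was lower at 0 h (-0.69 ± 0.19), 12 h (-0.47 ± 0.17), 24 h (-0.60 ± 0.17) and 48 h (-0.92 ± 0.18), of which the 12 h call was lost when any of 4 libraries was left out and those at 0 and 24 h when 1 was (-0.53 without 1A wild type 0 h replicate 1 and -0.45 without 1A wild type 24 h replicate 3). Dppa4 was lower at 12, 24 and 48 h, down to -0.48 ± 0.10, and the 12 h value of -0.34 became -0.25, not called, without Ezh2 knockout 12 h replicate 3. Tcl1 was higher at 0 h (0.74 ± 0.11), 12 h (0.67 ± 0.098) and 24 h (0.29 ± 0.096), and the last of these lost its call without any of 3 libraries (0.18 without 1A wild type 24 h replicate 1). Zfp42 changed sign: 0.33 ± 0.061 at 0 h, 0.28 at 12 h, -0.26 ± 0.060 at 24 h, -0.32 at 48 h and -0.24 ± 0.060 at 96 h. The values at 48 and 96 h were also called in the RUV table (-0.245 and -0.231). That at 24 h was not called there (-0.17) or with the groups fitted alone. With no filter on low counts the values at 24 and 96 h were not called (adjusted p = 0.063 and 0.18). Dppa5a was higher at 12 h (0.59 ± 0.21, lost without any of 4 libraries) and lower at 48 h (-0.68 ± 0.21, and -0.52, not called, without 1A wild type 48 h replicate 3).

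In the Eed knockout, Dppa4 and Zfp42 were lower than in 1A wild type at all 5 times. Dppa4 was at 69.1, 68.13 and 66.51 CPM at 0 h against 139.6, 125.9 and 123.3 (-0.93 ± 0.095) and differed by -1.25 ± 0.11 at 48 h. Zfp42 was at 182.7, 186.5 and 183.4 CPM at 48 h against 448.8, 443.1 and 429.7 (-1.26 ± 0.062, 2.39-fold lower) and differed by -0.29 ± 0.061 at 0 h. Triml1, the gene most like Zfp42 and 114.6 kb from it, was lower too, by -1.33 ± 0.14 at 48 h. It was picked by its likeness over these same groups, so its difference is no separate evidence. Dppa2 was lower up to 48 h (-0.68 ± 0.12) and not at 96 h (-0.07 ± 0.11, adjusted p = 0.62); the value at 12 h, -0.36, became -0.21 and was not called without Eed knockout 12 h replicate 1, the library that stands apart, and -0.56 without replicate 3. Tcl1 crossed from 0.32 ± 0.12 at 0 h, which was not called without replicate 1 of either group (0.30 and 0.29), to -1.22 ± 0.10 at 24 h and -0.54 ± 0.097 at 96 h. Dppa5a was lower at 24 h (-1.04 ± 0.21), 48 h (-1.76 ± 0.22) and 96 h (-1.01 ± 0.21). Dppa3 was higher at 12 h (0.89 ± 0.17) and 96 h (1.53 ± 0.23) and lower at 48 h (-0.57 ± 0.18).

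These level differences depend on which of the 2 deposited sets of counts is used. Other scaling factors for the raw counts (RLE in place of TMM) reversed the direction of 0 of 312 member values. In the authors' second table, from which unwanted variation had been removed (RUV), Dppa4 differed by -0.04 at 0 h and -0.21 at 48 h, Zfp42 by 0.59 at 0 h and -0.25 at 48 h, Dppa2 by 0.16 at 0 h, Tcl1 by 0.80 at 0 h and -0.71 at 24 h, Dppa5a by -0.43 at 24 h, -1.16 at 48 h and -0.38 at 96 h, and Dppa3 by -0.78 at 0 h, 0.06 at 12 h, -1.67 at 48 h and 0.58 at 96 h. Dppa5a was called there at 48 h and not at 24 or 96 h, and Dppa3 at 0, 48 and 96 h and not at 12 h. Dppa4 was not called at any time there, and the sign of Zfp42 changed at 0, 12 and 96 h. Marker sums were made from the raw counts only, with the same scaling, so they cannot tell which set of counts to use. At 48 h the embryonic stem cell markers summed to 2490 to 2550 CPM in the Eed knockout against 5620 to 5770 in 1A wild type. The trophoblast markers summed to 4730 to 5370 CPM against 673 to 724, and the primitive endoderm markers to 3030 to 3090 CPM against 657 to 765. The part of these markers in the differences was not tested.

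**Figure D5:**
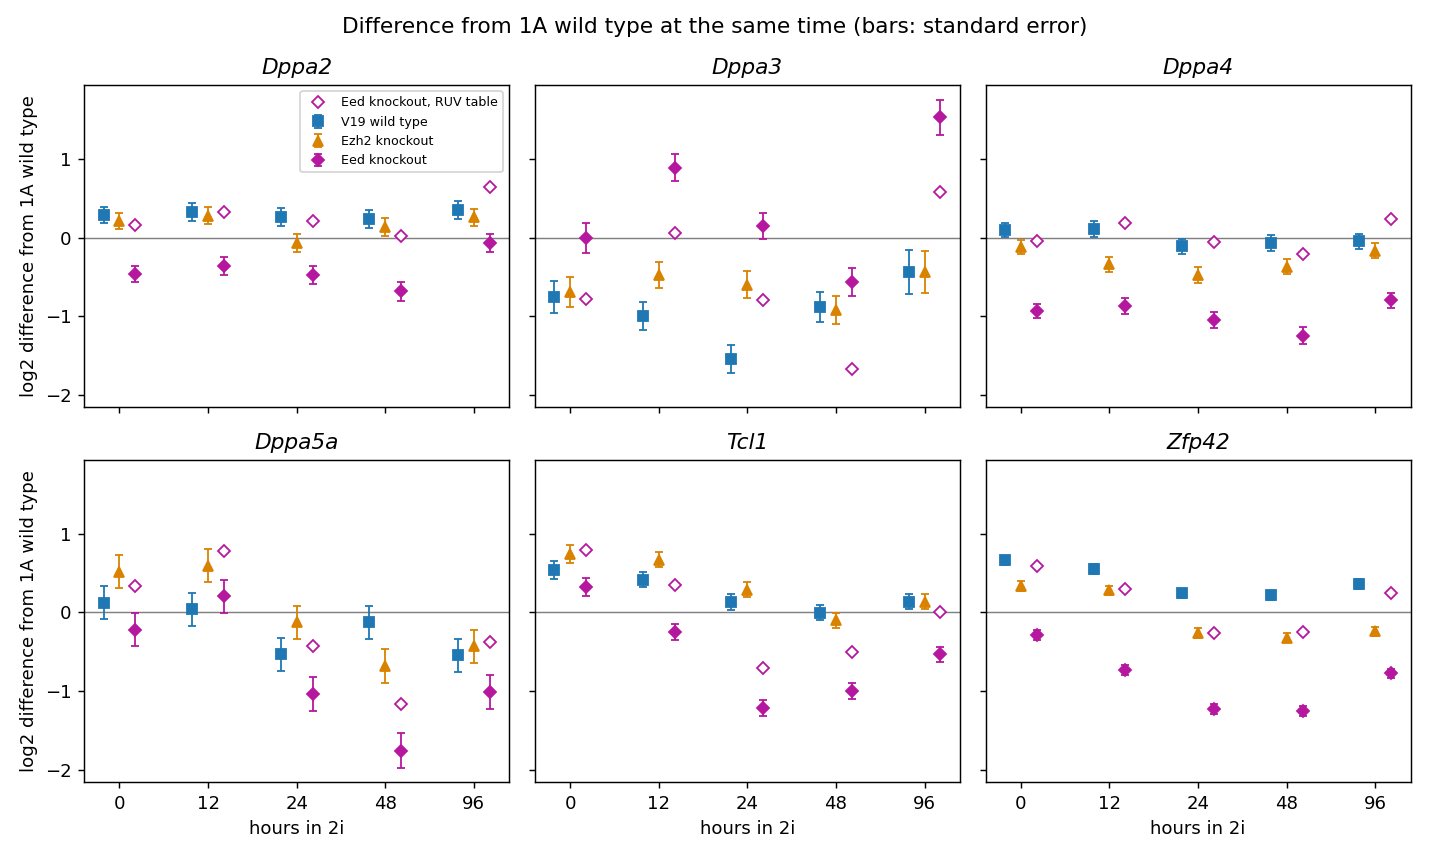
Log2 difference of V19, the Ezh2 knockout and the Eed knockout from 1A wild type at the same time, 1 panel per gene, with SE bars; open symbols give the Eed knockout in the RUV table, without bars. In the raw counts the Eed knockout lies under 0 for Dppa4 and Zfp42 at every time, with -0.93 for Dppa4 at 0 h, and in the RUV table Dppa4 at 0 h lies at -0.04.

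Against the Ezh2 knockout, the Eed knockout was lower in Dppa2, Dppa4, Tcl1 and Zfp42 at all 5 times, with Zfp42 at -0.63 ± 0.061 at 0 h and -1.01 ± 0.061 at 12 h and Tcl1 at -1.51 ± 0.10 at 24 h. Dppa3 was higher at 12 h (1.37 ± 0.17) and 96 h (1.97 ± 0.23). In the RUV table the total of 28 calls of 30 became 12. Of these, 5 kept their direction, Tcl1 at 12, 24 (-1.05) and 48 h and Dppa3 at 12 (0.65) and 96 h, and 7 had the opposite sign to the raw value.

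The response to 2i, the change from 0 h within a line, was then compared between lines by an interaction term. That term takes the level at 0 h off each line, so a difference between lines at 0 h enters it. V19 and 1A wild type differed in 0, 1, 2 and 1 members at 12, 24, 48 and 96 h (background 0.119%, 1.12%, 2.25% and 1.68%). For the Ezh2 knockout the counts were 0, 2, 3 and 3 (background 2.91%, 9.59%, 17% and 12.2%), and for the Eed knockout 3, 3, 3 and 5 (background 11.2%, 19.5%, 35.4% and 27.3%). At 48 h in the Eed knockout the median over the members was -0.77 and over all genes 0.0086.

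The changes of Tcl1 and Zfp42 lay below those of 1A wild type at each time in the Eed knockout and from 24 h in the Ezh2 knockout. In the Eed knockout that of Tcl1, a smaller rise, differed by -0.57 ± 0.16, -1.54 ± 0.16, -1.32 ± 0.15 and -0.86 ± 0.15 at 12, 24, 48 and 96 h, and that of Zfp42, which fell at 12 (not called in the RUV table, -0.11), 24 and 48 h where 1A wild type did not, by -0.44 ± 0.086, -0.94 ± 0.086, -0.97 ± 0.087 and -0.49 ± 0.086. The 12 h value of Tcl1 was not called with the groups fitted alone (adjusted p = 0.054). All were called in the RUV table, where Tcl1 was at -0.45, -1.51, -1.30 and -0.79 and Zfp42 at -0.28, -0.85, -0.84 and -0.35. The Ezh2 knockout differed in Tcl1 by -0.84 ± 0.15 at 48 h and -0.61 ± 0.15 at 96 h, and in Zfp42 by -0.60, -0.66 and -0.58 at 24, 48 and 96 h. The Tcl1 difference of -0.45 at 24 h was lost when any of 9 of the 12 libraries was left out (range -0.56 to -0.37). The Tcl1 level of the Ezh2 knockout was above that of 1A wild type by 0.74 at 0 h. It did not differ by the test at 48 h (-0.097) or 96 h (0.13).

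V19 differed in Zfp42 by -0.42 ± 0.085 at 24 h and -0.45 ± 0.086 at 48 h. Neither was called with no filter on low counts (adjusted p = 0.15 and 0.14) or with the groups fitted alone (adjusted p = 0.075 and 0.14). Its Zfp42 difference at 96 h (-0.30) was lost when any of the 12 libraries was left out, and its Tcl1 difference at 48 h (-0.54) when any of 9 was, over a range from -0.72 to -0.41. The Tcl1 level of V19 was above that of 1A wild type by 0.54 at 0 h and differed by -0.0042 at 48 h.

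The Dppa3 change in the Eed knockout lay above that of 1A wild type by 0.89 ± 0.25 at 12 h (adjusted p = 0.014), a larger rise, and by 1.53 ± 0.29 at 96 h (adjusted p = 5.4e-05), a smaller fall. In the RUV table the values were 0.84 (adjusted p = 0.05) and 1.36. The 12 h call was lost without 1A wild type 0 h replicate 1 (0.73) and without Eed knockout 12 h replicate 1 (0.79). No Dppa3 response differed from 1A wild type by the test in the Ezh2 knockout (0.25 ± 0.33 at 96 h) or in V19 (0.31 ± 0.34 at 96 h).

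The Dppa5a rise was smaller in the knockouts at 48 h, by -1.20 ± 0.30 in the Ezh2 knockout and -1.54 ± 0.30 in the Eed knockout, where the median difference of the short genes was -0.43 and -0.59. At 96 h the differences were -0.95 ± 0.30 in the Ezh2 knockout and -0.79 ± 0.30 in the Eed knockout, with short genes at 0.018 and -0.045; leaving out any of 6 and of 10 of the 12 libraries, respectively, ended these calls. The difference of -0.82 at 24 h in the Eed knockout was lost without any of 9 libraries (-0.66 to -1.04). Dppa2 in the Eed knockout at 96 h (0.40 ± 0.15) was lost without any of 10. Dppa4 was not called in any of the 12 response comparisons, though its value at 48 h in the Eed knockout, -0.31, became -0.40 and was called without the libraries that stand apart.

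Dppa1, a related gene that is not a member, was more abundant in the Eed knockout than in the other lines. It had 0 counts in 1A wild type at 0 and 12 h and in V19 at 0 h, and 10 counts (0.56 CPM) at 48 h and 9 counts (0.533 CPM) at 96 h in 1A wild type. In the Eed knockout it stood at 1.89 ± 0.716 CPM (SD, n = 3) at 0 h, 25.8 ± 2.54 at 24 h and 35.5 ± 4.41 at 96 h, a rise of 4.22 ± 0.27 (adjusted p = 1.6e-17), and it was above 1A wild type at 96 h by 6.01 ± 0.34. The Ezh2 knockout went from 0.127 CPM (3 counts) at 0 h to 4.47 ± 0.407 CPM at 48 h, above 1A wild type by 2.65 ± 0.50 (adjusted p = 6.9e-05). The changes from 0 h at 48 and 96 h were called in 1A wild type and in the Ezh2 knockout as well. No difference in response between the Eed knockout and 1A wild type was called. With 0 counts in 1A wild type at 0 h, that test cannot tell whether the responses differ. Dppa5b, Dppa5c and Dppa3-ps had 3, 1 and 76 counts over all 60 libraries. Of the Yy1 family, Yy1 had 66849 counts and Yy2 4591.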

How the data were processed

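Raw counts per gene from 60 polyadenylated RNA libraries (75-base single reads) were deposited by the authors. The submitters' processing notes name STAR 2.7.10b, featureCounts 2.0.3, MultiQC 1.14, DESeq2 and the build GRCm39. Whether counting used strand, or reads that match several places, is not given in the sources used here. A second table deposited by the authors holds counts normalized by RUV and rounded to whole numbers, a score whose settings are not given; it was used only as an alternative, as log2(value + 1) with limma 3.58.1. From the raw counts, 15083 genes passed a filter (count of at least 10 in a library of median size, total of at least 15), and 1 model with a mean for each of 20 groups was fitted in edgeR 4.0.16 (R 4.3.3) with TMM factors, the quasi-likelihood test and Benjamini-Hochberg adjustment over all genes at 0.05. CPM used TMM factors, and exon lengths came from the count table. On simulated data, changes of 2-fold were recovered in 90% of genes in 1A wild type at 96 h against 0 h and in 78% for the Eed response at 96 h. There, 50 well counted genes at each fold were changed in 1 group, and all other genes kept 1 mean over the groups. Far fewer genes changed than the 48.6% called in 1A wild type at 96 h, so the rates may differ in the data.

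The members and the gene lists were chosen with earlier results of these data known. The lists are naive regulators, DNA methylation genes, 2-cell genes, Akt pathway, X inactivation, maternal genes, and 6 lists of cell markers. Genes named are the 6 members, Ezh2 and Eed, the 3 genes most like each member (predicted genes and pseudogenes left out), tested genes within 100 kb of a member, other genes of the families, and up to 4 called genes of a list with the smallest adjusted p; Zfp42-ps1 and the genes sharing windows with a member were added after their values were seen. Pairs of replicates in a group differed by more than counting noise (chi-square per degree of freedom of 1.13 to 25.6), so none was counted as a duplicate. Same-numbered replicates did not pair: in 0 of 48 comparisons did every pair correlate above 0.1. Alternatives were RLE factors, other filters, the replicate block, DESeq2 1.42.0, groups fitted alone, the RUV table, and each library left out. Library depths limit precision most for genes with few counts.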

Additional observations from a re-analysis of the deposited data

Results flagged for a closer look

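Each value here is the difference between the response to 2i of a line and that of 1A wild type (log2 scale, edgeR's quasi-likelihood test on the interaction term, Benjamini-Hochberg adjusted p under 0.05), 26 of 72 tested. The 3 lines share the 1A wild-type libraries.

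In V19, Zfp42 differed by -0.421 at 24 h, -0.446 at 48 h and -0.304 at 96 h, and Tcl1 by -0.54 at 48 h. In the Ezh2 knockout, Tcl1 differed by -0.454, -0.837 and -0.606 at 24, 48 and 96 h, Zfp42 by -0.597, -0.655 and -0.576 at the same times, and Dppa5a by -1.2 at 48 h and -0.947 at 96 h.

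In the Eed knockout, Tcl1 differed by -0.573, -1.54, -1.32 and -0.859 at 12, 24, 48 and 96 h, and Zfp42 by -0.44, -0.942, -0.968 and -0.485. Dppa3 differed by 0.893 at 12 h and 1.53 at 96 h. Dppa5a differed by -0.817, -1.54 and -0.792 at 24, 48 and 96 h, and Dppa2 by 0.397 at 96 h. Single genes were not searched for outlying values within a group, since each group holds 3 libraries.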

How the results depend on the processing

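Of 312 member values, RLE factors kept the direction and call of 302, a filter of at least 1 CPM 309, no filter 278, the replicate block 310, DESeq2 305, groups fitted alone 281 and 245 held in the RUV table. The V19 response calls, 4 in all, became 2 with RLE factors, with the replicate block and with groups fitted alone, where 1 of the 2 is a different call (Dppa5a at 96 h). With no filter none of the 4 was called and 3 others were (Dppa3 at 24 h, Dppa5a at 24 and 96 h). The Eed minus Ezh2 calls went from 28 to 12 in the RUV table. In the RUV table these Eed minus 1A wild-type differences changed sign: Dppa2 0.16, 0.32, 0.21, 0.026 and 0.65 at 0, 12, 24, 48 and 96 h, Zfp42 0.59, 0.30 and 0.24 at 0, 12 and 96 h, Dppa4 0.18 and 0.23 at 12 and 96 h, Tcl1 0.35 and 0.00601 at 12 and 96 h, and Dppa3 -0.80 at 24 h. So did these Eed minus Ezh2 differences: Dppa3 -0.0339, -0.10 and -0.59 at 0, 24 and 48 h, Dppa4 0.0182, 0.42, 0.33, 0.0581 and 0.39 at the 5 times, Tcl1 0.0329 and Zfp42 0.19 at 0 h, and, at 96 h, Zfp42 0.47, Dppa2 0.39 and Dppa5a 0.0725, with Dppa2 0.21 at 24 h. The cause was not tested. With the replicate block, which the numbers do not warrant as pairing, the responses of V19 for Tcl1 at 48 h (-0.54) and Zfp42 at 96 h (-0.30) lost their call, and no other call changed.

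Leaving out 1 library at a time gave 23 to 24 calls for 1A wild type against 0 h, 19 to 20 for V19, 18 to 20 for the Ezh2 knockout, 19 to 20 for the Eed knockout and 13 to 16 for 48 to 96 h. It gave 12 to 14 for V19, 15 to 17 for Ezh2 and 24 to 25 for Eed against 1A wild type, 27 to 29 for Eed against Ezh2, and 2 to 7, 6 to 10 and 11 to 15 for the responses of V19, Ezh2 and Eed. Over all genes, V19 against 1A wild type at 0 h had 2415 calls with groups fitted alone, against 1590 as reported, and 2244 against 1124 at 96 h. Eed against 1A wild type had 3005 calls in the RUV table at 0 h and 3486 at 96 h, against 7488 and 8337 as reported. The alternative without the 4 libraries that stand apart was chosen after seeing the data; it kept 79 of 84 values. Protein comparison was not run. Plain CPM moved 19 of 120 levels by over 1 SD (ratios 0.893 to 1.07), and the 18 companions kept a Spearman rho of 0.821 to 0.958. Their order was less stable. By Spearman, Rarg was at rank 103 for Dppa2, while Dync1i2 for Dppa3 and Nolc1 for Dppa4 were at rank 1. Over the 10 wild-type groups, Sh3gl2 and Dlgap3 were at ranks 222 and 258 for Zfp42.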
